A study of Drosophila melanogaster with 4 samples.

Results

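The left arm of chromosome 3, 3L, was examined for clusters of POF enrichment in Drosophila melanogaster, leaving out both arm ends. A cluster belonged to the set when its midpoint lay between positions 1000001 and 23000000 of 3L (FlyBase release 5). Membership among the called clusters thus rested on position alone, although the span itself was chosen with earlier results of these data known. The combined list held 3548 such clusters out of 20574 on all sequences, or 17.2%. The same span held 1091 of 6433 clusters in the list of replicate 1 and 986 of 5786 in the list of replicate 2. All rows of the combined list called as enriched were kept, and the single depleted region of that list, which lies on another arm, was left out.

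POF is an RNA-binding protein best known for coating the small chromosome 4 of this fly, where it binds along active genes and supports their expression. It works there together with the heterochromatin protein HP1a and the histone methyltransferase Eggless. Arm 3L is a large, mostly euchromatic autosomal arm. Its low coordinates lie toward the telomere and its high coordinates toward the pericentric heterochromatin.

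The study used wild-type larvae of the Oregon-R-modENCODE strain in the 3rd instar, with no treatment or allele that sets any group apart. Its 4 samples were 2 libraries precipitated with an affinity-purified rabbit polyclonal antibody to residues 1 to 150 of POF and 2 input libraries. Whole larvae were homogenized and fixed, so each library mixes all larval tissues, and the labels do not tell the sexes apart. The groups follow the sample titles, because the free-text description of ChIP replicate 2 speaks of input DNA alone and that of 1 input library names the antibody. Nothing in the labels states that the replicates were separate collections of larvae, and their differences may therefore be technical. The lists give no read counts, so the depth of each library is unknown, and clusters of the input libraries were not analysed here.

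Clusters were frequent along the whole of the 3L span and covered it much more fully in the combined list than in either replicate. The covered share, meaning the percentage of bases inside clusters, was 8.70% in replicate 1 (1913674 bp) and 9.79% in replicate 2 (2153461 bp), with a mean of 9.24% ± 0.77 (SD, n = 2). The combined list covered 29.7% of the span (6524198 bp). Both replicates thus covered about the same amount of sequence, while the authors' combined list covered more than their union, which came to 3646646 bp. Of the bases in combined clusters, 50.9% lay in a cluster of at least 1 replicate and 6.44% lay in clusters of both.

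By number, the span held 49.6 clusters per Mb in replicate 1, 44.8 in replicate 2 (mean 47.2 ± 3.37, SD, n = 2) and 161.3 in the combined list. Replicate 2 thus had fewer but longer clusters. Their median length was 1931.5 bp in replicate 2 and 1579 bp in replicate 1. In the combined list the median was 1478 bp, and the shortest cluster there measured 1001 bp against 1301 bp and 1302 bp in the replicate lists. Clusters of at least 3000 bp numbered 382 in the combined list, or 10.8%, against 11.7% over the 6 assembled arms. On spans of 2L and 3R that leave out the same distance at each arm end, the shares were 11.1% and 11.0%. On 3L these long clusters made up 25.2% of the length of all combined clusters of the span. Replicate 1 had 43 clusters of that length and replicate 2 had 134.

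The authors gave each cluster a score, taken here as log2 from its values and with no stated reference, so the levels below describe each list on its own scale and do not rank the lists. The median score on the span was 0.62 in replicate 1, 0.59 in replicate 2 and 0.42 in the combined list. The 10th and 90th percentiles were 0.50 and 0.74 in replicate 1, 0.42 and 1.00 in replicate 2, and 0.32 and 0.52 in the combined list. In replicate 2 the 90th percentile lay farther from the median than the 10th. In the combined list, a score of at least 1 was reached by 31 clusters (0.87%, against 1.4% over the 6 arms). On the like spans of 2L and 3R the shares were 1.31% and 1.01%. Length and score were positively related across the clusters of a list, with a Spearman coefficient of 0.61 in replicate 2, 0.38 in replicate 1 and 0.13 in the combined list (986, 1091 and 3548 clusters). Both values of a cluster come from the same reads, so these coefficients are descriptions.

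**Figure D1:**
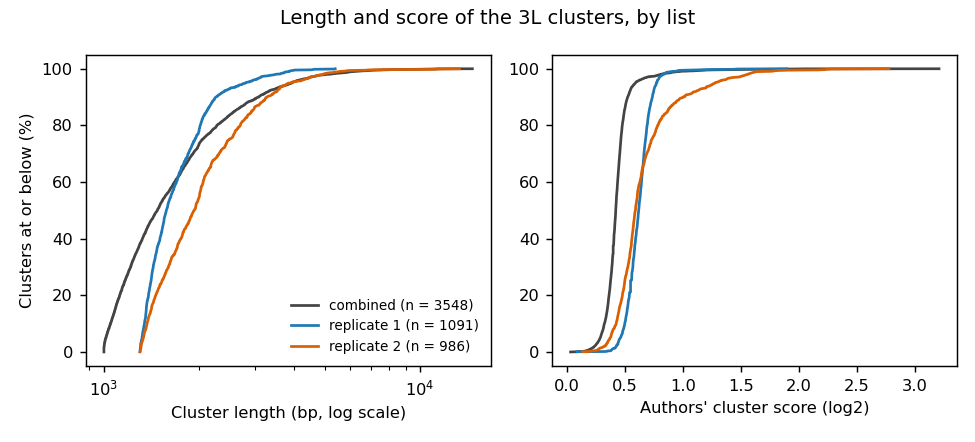
Cumulative percentage of 3L clusters at or below a given length (left, bp on a log scale) and a given score (right), with 1 line for each list. Scores are as deposited, each list on its own scale, and their log2 unit is inferred from the values. The combined list holds the shortest clusters (median 1478 bp), and replicate 2 has the longest median (1931.5 bp).

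Coverage varied along the arm, with a densely covered telomere-side megabase. The 3 least covered windows of 1 Mb in the combined list lay between 10000001 and 19000000. Over 22 windows of 1 Mb, the combined covered share had a lowest value of 16.8%, a median of 29.3% and a highest value of 46.3%. In replicate 1 the lowest, median and highest windows had 2.84%, 8.64% and 15.9%. In replicate 2 they had 5.31%, 8.45% and 18.1%. No window of 1 Mb was without clusters in any list, and the number of combined clusters per window ran from 98 to 215.

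The most covered window was the first, at 1000001 to 2000000, in all 3 lists. It held 215 combined clusters covering 46.3%, 85 clusters of replicate 1 covering 15.9% and 79 of replicate 2 covering 18.1%. Relative to the whole span, this was 1.56 times the covered share in the combined list, 1.83 times in replicate 1 and 1.85 times in replicate 2. The excess was thus of like size in both replicate lists. The next 2 windows of the combined list were 8000001 to 9000000 at 37.7% and 22000001 to 23000000 at 37.3%. The first of these also stood high in the replicates, at 10.1% in replicate 1 (rank 6 of 22) and 14.5% in replicate 2 (rank 3). The replicates parted at 22000001 to 23000000, where replicate 1 had 69 clusters covering 11.9% (rank 4) and replicate 2 had 35 covering 7.36% (rank 20).

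The least covered window was 18000001 to 19000000, with 98 combined clusters covering 16.8%. Replicate 1 had 17 clusters there covering 2.84%, the lowest of its 22 windows, and replicate 2 had 36 covering 7.40%, which ranked 19. The window 10000001 to 11000000 came next, covered to 18.5% by combined clusters, to 3.70% by replicate 1 and to 5.31% by replicate 2. It ranked 21 in replicate 1 and last, 22, in replicate 2. The window 14000001 to 15000000 followed, at 20.5%, 5.97% and 6.43%, with ranks of 19 and 21 in the replicates. All 3 windows were thus among the 4 lowest of both replicate lists. These windows were picked by their values in the combined list, which was made for the same ChIP libraries, so their ranks in the replicates are not independent of the choice.

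**Figure D2:**
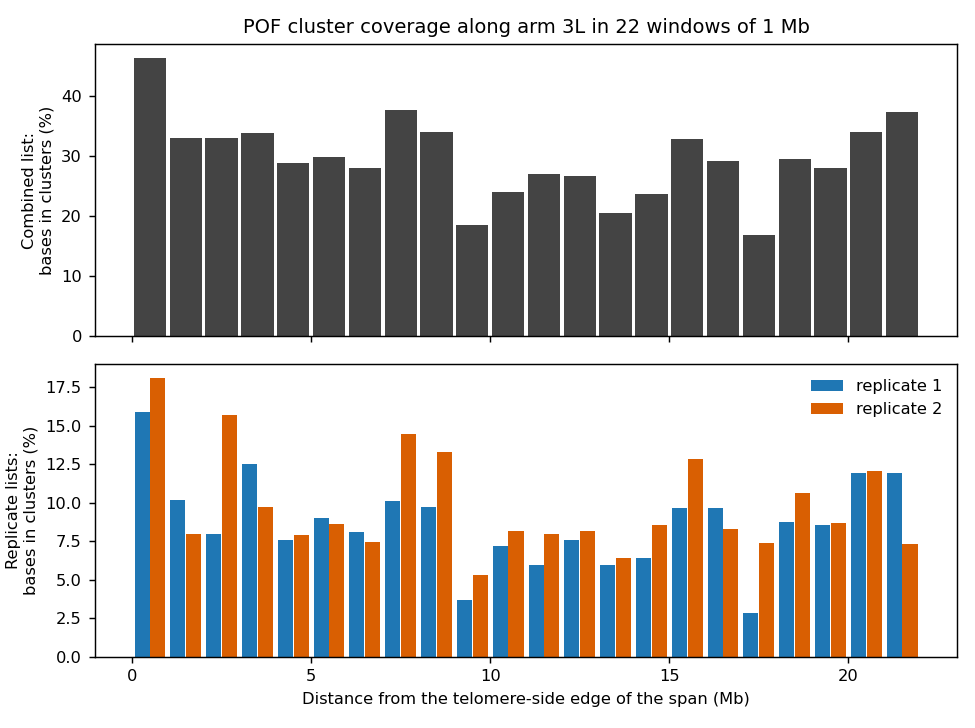
Percentage of bases inside POF clusters in 22 windows of 1 Mb along 3L, plotted by distance in Mb from the telomere-side edge of the span, for the combined list (top) and both replicate lists (bottom). The first window is the highest in all 3 lists (46.3%, 15.9% and 18.1%), and the 18th, with 16.8% in the combined list, is the lowest there and in replicate 1.

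Between the replicates themselves, the covered shares of the 22 windows had a Pearson coefficient of 0.62 and a Spearman coefficient of 0.56. Without the densest window the coefficients were 0.45 and 0.50 over 21 windows. Both replicates lay above their own median in 8 windows and at or below it in 8, and they were split in 6. The like spans of 2L and 3R, which leave out the same distance at each arm end, gave Pearson coefficients of 0.76 over 20 windows and 0.44 over 25 windows. On a finer scale of 220 windows of 100 kb, the coefficients on 3L were 0.44 and 0.39. These are descriptions, because windows of 1 library share its depth and the same mappable sequence. The part played by base composition, repeats and mappability was not tested.

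Dense stretches were defined as runs of at least 2 neighbouring windows of 100 kb at or above the 90th percentile of the combined covered share (44.2%). Of the 22 windows at or above it, 15 stood alone and the others formed 3 runs. The longest run spanned 1500001 to 1800000, where 76 combined clusters covered 58.9%, 34 clusters of replicate 1 covered 21.6% and 43 of replicate 2 covered 30.5%. That was 1.99, 2.48 and 3.11 times the share of the whole span. The second run, 4100001 to 4300000, was covered to 51.5% by combined clusters, 15.5% by those of replicate 1 and 19.3% by those of replicate 2. The third, 5700001 to 5900000, was covered to 52.5%, 17.2% and 16.9%, with 21 clusters in replicate 1 and 9 in replicate 2. Clusters of replicate 2 in the third run were thus fewer and longer. All 3 runs were more densely covered than the span in each replicate list. Among all 22 dense windows, 21 were above the median window of replicate 1, 20 above that of replicate 2 and 19 above both, in windows chosen from the combined list.

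The single densest window of 100 kb was 1700001 to 1800000, with 28 combined clusters covering 68.9%. Replicate 1 had 14 clusters there covering 27.9% and replicate 2 had 16 covering 33.9%, and 9 combined clusters were touched by both. The next were 13400001 to 13500000 at 59.3% and 2200001 to 2300000 at 56.4%, singled out after their values were seen. Within the first megabase of the span, 5 of the 10 windows were dense, and coverage was uneven. The window 1300001 to 1400000 was covered to 9.74% in replicate 1 and 31.1% in replicate 2, whereas 1900001 to 2000000 was covered to 19.6% in replicate 1 and 5.50% in replicate 2. The replicate list with the larger covered share thus differed between these dense windows. Neither replicate list reached 12 of the 23 combined clusters at 1300001 to 1400000 (52.2%), or 13 of the 24 at 1900001 to 2000000 (54.2%). These shares were close to those of the whole 3L span (52.1%) and of the 6 arms (51.0%).

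Empty stretches were short in the combined list and long in the replicates. The median distance between neighbouring clusters was 2213 bp in the combined list, 9761.5 bp in replicate 1 and 8025 bp in replicate 2. The longest stretch without a combined cluster measured 68810 bp, at 18321905 to 18390714. Replicate 1 had no cluster in it, and 1 cluster of replicate 2 covered 0.14% of it. The next were 15385967 to 15449540 (63574 bp), without any cluster in either replicate, and 14259674 to 14310762 (51089 bp), with 1 cluster of each replicate. The other 7 of the 10 longest measured between 39017 and 45759 bp. In order along the arm, 1 lay at 7773567 to 7815745, and 3 lay at 10754326 to 10797429, at 11414524 to 11456730 and at 12065825 to 12109125. The last 3 lay at 13752031 to 13796017, at 14544962 to 14590720 and at 15263003 to 15302019. Of all 10, 9 lay between 10754326 and 18390714, and 1 lay on the telomere side of that stretch. In 6 of the 10 neither replicate list had a cluster. The combined list touched 95.7% of the replicate 1 clusters of the span (95.1% over the 6 arms) and 98.8% of those of replicate 2 (98.1% over the 6 arms). Few replicate clusters could therefore fall in its gaps.

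The longest empty stretches of the replicates were not shared. In replicate 1 it ran from 18206615 to 18581705 (375091 bp), where replicate 2 had 8 clusters covering 3.96% and the combined list had 25. The second of replicate 1 was 10312124 to 10625561 (313438 bp), with 5 clusters of replicate 2. In replicate 2 the longest ran from 14268457 to 14529633 (261177 bp), with 4 clusters of replicate 1 covering 2.20%, followed by 13597893 to 13837721 (239829 bp), with 7. Stretches of at least 100 kb without a cluster numbered 18 in replicate 1 and 34 in replicate 2, and none occurred in the combined list. The like span of 2L had 18 such stretches in replicate 1 and 36 in replicate 2, and that of 3R had 11 and 35. On 3L, windows of 100 kb without a covered base numbered 7 in replicate 1 and 18 in replicate 2, of which 2 were shared. These 2 were 10400001 to 10500000 and 13700001 to 13800000, and the combined list still had 7 and 9 clusters in them.

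The 22 windows of 100 kb at or below the 10th percentile of the combined list (13.6%) lay below the median window of both replicate lists, which is largely built into the choice because the combined list touches most replicate clusters. Replicate 1 had no covered base in 6 of them and replicate 2 in 10. The sparsest was 18300001 to 18400000, where 4 combined clusters covered 7.00% of the sequence and replicate 1 had none, while 3 clusters of replicate 2 covered 6.13%.

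Many clusters of the combined list stood close together. Of its 3548 clusters, 1735 (48.9%) had a neighbour within 1000 bp and formed 686 chains, the largest of 8 clusters. In replicate 1, 15.9% of clusters were in such chains, and in replicate 2, 23.2%. Close spacing was not particular to 3L. Of the gaps between neighbouring combined clusters, 29.6% were at most 1000 bp on 3L. On the like spans of 2L and 3R these shares were 28.5% and 31.1%. The longest chain of the combined list, of 7 clusters, spanned 22441 bp at 1636420 to 1658860. The second, of 6 clusters, spanned 22180 bp at 1743940 to 1766119, so both lay inside the longest dense run. The third, of 7 clusters, was at 7315563 to 7337077 (21515 bp). The highest score in these 3 chains was 0.60, so the longest chains did not hold the highest scores of the arm.

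Replicate agreement on 3L was close to that of the arms as a whole. Touched means here that at least 1 bp is shared. Of the 1091 replicate 1 clusters, 314 (28.8%, exact 95% Clopper-Pearson interval 26.1% to 31.6%) were touched by replicate 2, against 27.8% over the 6 arms. Of the 986 replicate 2 clusters, 304 (30.8%, 28.0% to 33.8%) were touched by replicate 1, against 29.2% over the 6 arms. The shares on the like spans were 28.5% and 31.9% on 2L, and 25.1% and 31.6% on 3R. In bases, the overlap made up 11.5% of all bases covered in either replicate on 3L, 12.7% on 2L and 11.5% on 3R. These intervals cover counting over clusters alone, and clusters of 1 library are not replicates.

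Of the 3548 combined clusters, 309 (8.71%) were touched by both replicates, 720 (20.3%) by replicate 1 only, 670 (18.9%) by replicate 2 only and 1849 (52.1%) by neither. Over the 6 arms these shares were 8.57%, 20.7%, 19.7% and 51%. Medians for clusters touched by both were 3288 bp in length and 0.50 in score. Those touched by replicate 1 only had 1700.5 bp and 0.42, those touched by replicate 2 only 1927.5 bp and 0.41, and those touched by neither 1216 bp and 0.42. Clusters touched by both were thus the longest group, and a longer cluster has more bases at which to be touched. They made up 17.7% of the length of all combined clusters on the span, and those touched by neither made up 38.5%. The median length of the latter (1216 bp) lay below the shortest clusters of the replicate lists on the span (1301 bp and 1302 bp). The part played by these length limits in the shares was not tested.

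Along the arm, agreement was lowest at 11000001 to 13000000 and at 17000001 to 19000000. In 11 windows of 2 Mb, the share of replicate 1 clusters touched by replicate 2 had a lowest value of 16.9%, a median of 28.6% and a highest value of 37.0%. For replicate 2 clusters the values were 16.3%, 31.6% and 45.3%. The window 11000001 to 13000000 was the lowest in both directions, with 13 of 77 replicate 1 clusters and 13 of 80 replicate 2 clusters touched. The window 17000001 to 19000000 was second lowest, with 15 of 77 (19.5%) and 15 of 76 (19.7%). The highest share was reached at 15000001 to 17000000 for replicate 1 (34 of 92) and at 5000001 to 7000000 for replicate 2 (29 of 64). In the latter, replicate 2 had its fewest clusters, and 60.6% of the combined clusters were touched by neither replicate, the highest share of the 11 windows. Covered shares differ between these windows, and the agreement that placement alone would give in each was not tested.

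**Figure D3:**
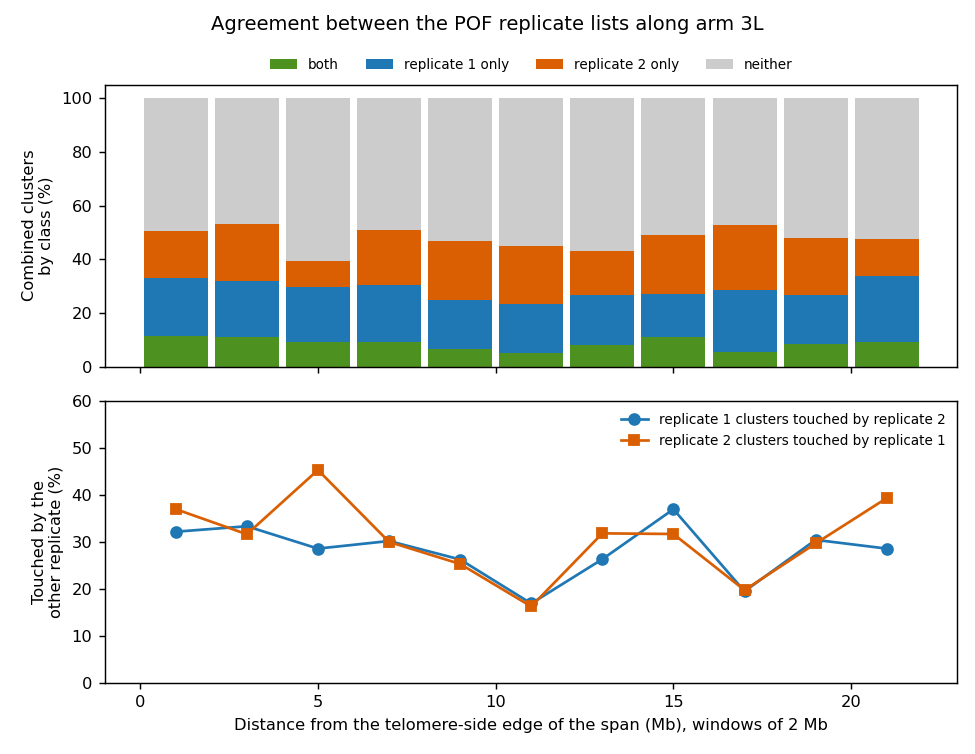
Replicate agreement in 11 windows of 2 Mb along 3L, by distance in Mb from the telomere-side edge of the span. Stacked bars give the percentage of combined clusters touched by both, 1 or neither replicate list, and points joined by lines give the percentage of each replicate's clusters touched by the other, which is lowest at 11000001 to 13000000 (16.9% and 16.3%).

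Median lengths and scores varied little between windows of 2 Mb, and lengths varied more between windows of 1 Mb. Over the 11 windows of 2 Mb, the median score ran from 0.40 to 0.44 in the combined list, from 0.60 to 0.64 in replicate 1 and from 0.53 to 0.66 in replicate 2. The highest median was at 1000001 to 3000000 in the combined list and in replicate 1, and at 5000001 to 7000000 in replicate 2. Median lengths ran from 1377 to 1619 bp, from 1476 to 1677 bp and from 1836 to 2082.5 bp. The number of combined clusters per window ran from 266 to 402, a wider relative range than that of the median length or score in that list. In windows of 1 Mb, the combined median length ran from 1270 bp at 10000001 to 11000000 to 1773 bp at 1000001 to 2000000. By combined covered share these windows ranked 21 and 1 of 22.

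The share found in the other replicate was higher among longer clusters, while its relation to score went opposite ways in the replicates. Among replicate 1 clusters, the share touched by replicate 2 was 20.9% in the shortest quartile and 38.5% in the longest. Among replicate 2 clusters it was 21.5% and 46.6%. By score, the share in replicate 2 was 18.2% in the lowest quartile and 49.0% in the highest. In replicate 1 it was 34.8% in the lowest score quartile and 25.3% in the highest. On 3L the top score quartile of replicate 1 thus had the lower share, although its clusters were longer (median 1963 bp against 1456 bp). The like span of 2L gave 30.6% and 27.0% for replicate 1 and that of 3R gave 25.3% and 27.4%, so the direction was the same on 2L and opposite on 3R. In replicate 2 the shares were 12.6% and 56.3% on 2L, and 14.1% and 53.9% on 3R. With 2 replicate lists, an exact sign-flip test of such differences cannot give a two-sided p below 0.5, so they are given as values.

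**Figure D4:**
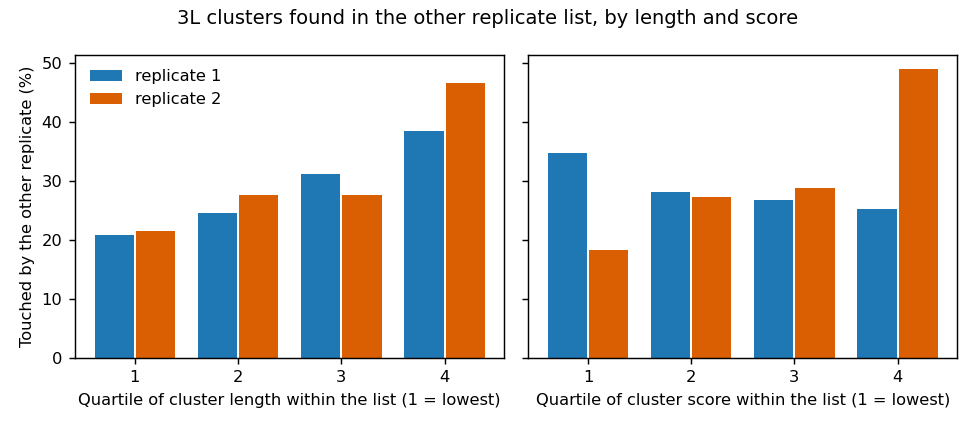
Percentage of 3L clusters of each replicate that were touched by the other replicate list, by quartile of cluster length (left) and of score (right) within the list. Shares are higher in the longest quartile of both replicates, and by score they are higher in the top quartile of replicate 2 (49.0%) and lower in the top quartile of replicate 1 (25.3%).

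The scores of clusters that overlapped between the replicates were weakly related. Over 314 pairs on 3L the Spearman coefficient was 0.09 and the Pearson coefficient 0.27. On 2L the coefficients were 0.02 and 0.15 over 287 pairs, and on 3R 0.16 and 0.37 over 388 pairs. A cluster that touched several clusters was paired with its largest overlap, and pairs on 1 arm share their libraries.

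Among the clusters touched by both replicates, the 10 with the highest combined scores lay between 6597736 and 22736014. None of these 10 lay in the densely covered first megabase of the span, which held 32 of the 309 clusters touched by both. With only 10 clusters, their absence there cannot be read as a trait of that megabase. That megabase still had the highest median score of the 22 windows of 1 Mb in the combined list (0.44). Its covered share was 1.56 times that of the span, and 2.06 times with scores at or above the list's median. The leading cluster of the 10, at 6597736 to 6601826 (4091 bp), had a combined score of 2.04. It corresponded to 1 cluster in replicate 1, of 3725 bp with a score of 1.46, and to 1 in replicate 2, of 2782 bp with a score of 2.77, the highest of replicate 2 on the span. Each replicate cluster covered most of the region, 91.1% in replicate 1 and 68.0% in replicate 2. The next was at 20518202 to 20520958 (2757 bp, score 1.83), with scores of 1.06 in replicate 1 and 2.24 in replicate 2. The third was at 7126098 to 7128606 (2509 bp, score 1.77), with 0.68 and 2.28. These 3 regions were compact, and each matched a single cluster in each replicate.

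The other 7 had combined scores between 1.22 and 1.55. Those at 9704401 to 9708420 (score 1.55) and 13027888 to 13038973 (score 1.40) had replicate 1 scores of 0.89 and 1.44 and replicate 2 scores of 2.16 and 2.22. A further 3 lay near the centromere-side bound, at 22732438 to 22736014 (score 1.398), 21871985 to 21874653 (score 1.34) and 21277786 to 21282865 (score 1.26). The last were the short cluster at 8306864 to 8309647 (2784 bp, score 1.31) and the long one at 16574579 to 16584288 (9710 bp, score 1.22). Within replicate 2, all 10 regions scored between the 97.3 and 100 percentiles of the clusters on the span. Within replicate 1 their percentiles ran from 4.03 to 99.9 (median 99.1). Of these 10, 7 stood at the 86.2 percentile of replicate 1 or above, and the lowest was the region at 21871985, with a replicate 1 score of 0.45 and a replicate 2 score of 1.79. High ranks are partly built into the choice by combined score.

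The longest combined cluster, at 21814008 to 21828642, measured 14635 bp and scored 0.72. Replicate 2 had it as 1 cluster of 13322 bp with a score of 1.02, and in replicate 1 it was broken into 3 clusters that covered 49.7% of it. The second longest, at 5755800 to 5767320 (11521 bp, score 0.60), was covered to 97.7% by 1 cluster of replicate 2 and to 12.1% by 1 of replicate 1. The third was the region at 13027888 to 13038973 (11086 bp), already named for its score of 1.40. The fourth, at 1636420 to 1647459 (11040 bp, score 0.48), lay in the longest dense run and was covered to 57.7% in replicate 2 and 10.9% in replicate 1. The fifth, at 22251039 to 22261746 (10708 bp, score 0.51), held 3 clusters of replicate 2 and none of replicate 1. The share of each of these 5 regions that lay in clusters was larger in replicate 2 than in replicate 1.

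The 2 highest scores of the combined list on the span belonged to short clusters that neither replicate list touched. The 5 highest scores of this untouched class were at 2065707 to 2066707 (1001 bp, score 3.21), 2447398 to 2448488 (1091 bp, 2.06), 7662033 to 7663055 (1023 bp, 1.98), 1424770 to 1425831 (1062 bp, 1.90) and 2927843 to 2928898 (1056 bp, 1.81). All 5 were shorter than the shortest cluster of either replicate list on the span. Of the 31 combined clusters with a score of at least 1, 22 were touched by both replicates (median length 3371 bp), 8 by neither (median 1052.5 bp) and 1 by replicate 1 only. The top score of 3.21 occurred with the same value in 8 clusters of the whole combined list, of which 3 were on the 6 arms. The cluster touched by replicate 1 only coincided with that library's highest score on the span, at 11610193 to 11611932 (1740 bp, score 1.896, combined score 1.18), singled out after its values were seen.

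Compared with the like spans of 2L and 3R, 3L stood near 2L and below 3R in covered share. No like span of 2R was computed. The like span of 2L was covered to 8.63% in replicate 1, 9.61% in replicate 2 and 28.0% in the combined list. That of 3R was covered to 10.73% in replicate 1, 10.74% in replicate 2 and 34.2% in the combined list. Relative to the mean of these 2 arms, the covered share of 3L was 0.90 in replicate 1 and 0.96 in replicate 2, a mean of 0.93 ± 0.05 (SD, n = 2), and 0.95 in the combined list. Relative to 2L alone the mean ratio was 1.01 ± 0.01 and relative to 3R alone 0.86 ± 0.07 (SD, n = 2 each). The ratio to the mean of both arms was below 1 in 2 of 2 replicates. On the differences from that mean, a two-sided exact sign-flip permutation test (n = 2 replicates) gave p = 0.5, the smallest it can give. By clusters per Mb the replicates were split. The ratio of 3L to the mean of both arms was 0.90 in replicate 1, 1.01 in replicate 2 and 0.97 in the combined list. Median lengths were slightly lower on 3L than on both other arms within each list. They were 1579 bp against 1604 bp on 2L and 1586 bp on 3R in replicate 1, and 1931.5 bp against 2001 bp and 2003 bp in replicate 2. The ratio to the mean of both arms was 0.99 and 0.96, below 1 in 2 of 2 replicates. On the differences in length, the two-sided exact sign-flip permutation test gave p = 0.5, again the smallest possible. The combined list gave 1478 bp against 1504 bp on 2L and on 3R.

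**Figure D5:**
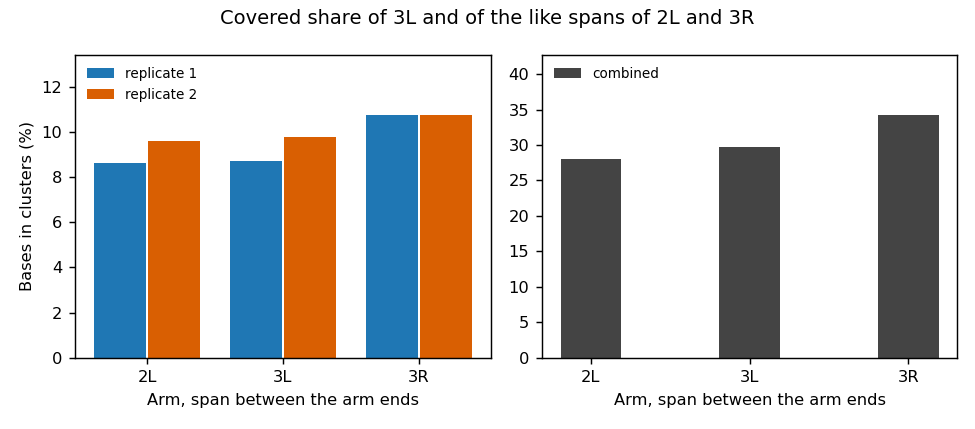
Percentage of bases inside POF clusters on the span of 3L and on the like spans of 2L and 3R, for both replicate lists (left) and the combined list (right, on its own axis). Each bar is 1 list, and 3L (8.70%, 9.79% and 29.7%) lies close to 2L and below 3R in all 3 lists.

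At the bounds of the span, the first cluster inside on the telomere side was at 1003420 to 1004420 (1001 bp, score 0.46) and the last outside at 997637 to 999160 (1524 bp, score 0.32). On the centromere side the last inside was at 22997817 to 22999644 (1828 bp, score 0.39) and the first outside at 23032854 to 23033879 (1026 bp, score 0.40). Genes and sequences at these positions are not reported, because the lists are of release 5 and the gene table used was built on release 6.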

How the data were processed

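POF ChIP-seq of 3rd instar larvae was analysed from 3 deposited lists of clusters, 1 for each ChIP replicate and 1 combined. Per the submitters' processing notes, alignment used Bowtie 0.12.7, and coordinates are of FlyBase release 5, per the file headers. The caller, its threshold, the input it used and how the combined list was made are not stated in the labels or headers. The deposited score of a cluster was taken as log2 from its values. Scores that differed from the list's most frequent one by the log2 of a ratio of whole numbers (denominator at most 200, relative tolerance 1e-09) made up 90.8% in replicate 1, 47.1% in the combined list and 31.1% in replicate 2, against 0, 1 and 0 scores in base e, so the scale is inferred and is least certain for replicate 2.

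Covered shares, cluster spacing and overlaps were computed with numpy 2.4.6, scipy 1.17.1 and pandas 2.3.3 under Python 3.11.15, and figures drawn with matplotlib 3.10.9. Counting, merging and overlap were tested on simulated lists. Each replicate list was 1 sample, so differences are given as values with their spread. Regions named in the text were, in the combined list, the 10 highest scores touched by both replicates, the 5 longest, the 5 highest scores touched by neither, the 10 longest gaps, the 3 most and 3 least covered windows of 1 Mb and all dense runs. The span, rules and windows were chosen with earlier results of these data known. Alternatives were a score filter, a length filter, merging, other overlaps, other windows, inclusion of the arm ends and each list alone. Depth is unknown, so no precision from depth can be given.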

Additional observations from a re-analysis of the deposited data

How the results depend on the processing

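Choices that remove clusters moved the levels by construction. With scores at or above each list's median, the mean covered share of the replicates was 4.59%, the density 19.7 clusters per Mb, the median length 2161.5 bp and the median score 0.73. With clusters of at least 2000 bp these were 4.33%, 15.7 per Mb, 2409.75 bp and 0.72. Merging within 1000 bp gave 42.3 clusters per Mb. In place of the replicate means (9.24%, 47.2 per Mb, 1755.25 bp, 0.60), the combined list gave 29.7%, 161.3 per Mb, 1478 bp and 0.42. Leaving out either replicate gave 8.70% to 9.79%, 44.8 to 49.6 per Mb, 1579 to 1931.5 bp, scores of 0.59 to 0.62, and a ratio to 2L and 3R of 0.90 to 0.96. That ratio was 1.01 against 2L alone and 0.86 against 3R alone.

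The share of replicate 1 clusters touched by replicate 2 (28.8%) was 16.3% with the score filter, 25.6% with the length filter and 22.7% when an overlap of at least 50% of the shorter cluster was required. The reverse share (30.8%) was 18.4%, 14.3% and 24.1%, and 34.1% after merging. The share of combined clusters touched by both (8.71%) was 5.22% with the score filter, 7.25% with the length filter and 13.0% after merging. The SD of the combined covered share over 1 Mb windows (6.74 percentage points) was 4.83 with the score filter, 5.23 with the length filter, 7.42 after merging and 8.00 with windows of 500 kb. Including the arm ends moved none of these values beyond the spread used.

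Each of the 9 named windows and runs was set against the span under 5 alternatives, and 44 of 45 values kept their side of 1, as extremes chosen from the combined list may do. By size, 19 of the 45 moved by more than the spread between replicates. The run at 1500001 to 1800000 went from 1.99 to 2.90 with the length filter and 3.11 in replicate 2, and the window at 10000001 to 11000000 from 0.62 to 0.36 with the length filter. The value that changed side was 22000001 to 23000000, at 1.26 in the combined list and 0.75 in replicate 2. Of the 5 alternatives, both replicate lists were added after the data were seen for every named window and run. The rest were filtered or merged versions of the combined list itself. The longest empty stretch was 105990 bp with the score filter and 429792 bp with the length filter. No paired analysis was possible because the groups that share replicate numbers are ChIP and input, and clusters of the input were not analysed here. The arm ratios were taken within each replicate. Depth is unknown, so it cannot be said which absent clusters depth could account for.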
